A study of Mus musculus with 12 samples.

Results

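Proximal signalling from the B cell receptor was described through 9 genes: *Cd79a*, *Cd79b*, *Cd22*, *Syk*, *Btk*, *Blnk*, *Lyn*, *Blk* and *Plcg2*. They were taken by name from a table of 41128 genes, and 9 of 9 were in it. The table came from RNA sequencing of splenic lymphocytes of the inbred mouse strain C57BL/6J at 6 to 8 weeks of age, and the labels name no transgene, allele or treatment for any group. There were 4 groups of 3 libraries each: female B cells (libraries 1 to 3), male B cells (1 to 3), female T cells (4 to 6) and male T cells (4 to 6). The B cells were resting cells lacking CD43, and the T cells were naive CD4+ CD62L+ cells. The study's methods describe the replicates of its methylation data on these cell populations as cells pooled from several mice, while the number of mice behind each RNA library is not given in the sources used here.

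The B cell receptor is a membrane immunoglobulin with no signalling tail of its own. It is paired with the CD79A and CD79B chains, whose tails carry tyrosine motifs that SRC-family kinases such as LYN and BLK phosphorylate when antigen is bound. SYK docks on those motifs and phosphorylates the adaptor BLNK, on which BTK and PLCG2 assemble. PLCG2 then releases the second messengers that raise calcium and activate protein kinase C. CD22 is a lectin of the same membrane that is phosphorylated by LYN and recruits the phosphatase SHP-1, so that it damps the signal. In T cells the same steps are carried by other proteins: CD3 chains, LCK and FYN, ZAP70, LCP2 (SLP-76) and PLCG1.

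Levels are given as adjusted TPM, that is, length-scaled transcript levels after a rescaling between libraries by the authors. A level of this kind is per length, and genes are set side by side here on that basis. The authors' quantifier and rescaling are not given in the sources used here, so orders and ratios between genes rest on that assumption. Each deposited value comes with a lower and an upper bound. Depth per library is unknown, because the values are not read counts. The adjusted values summed to 561020 to 1453940 per library, and 11122 to 11543 genes reached a level of 1. The B cell markers *Ms4a1*, *Pax5*, *Ebf1* and *Fcer2a* summed to 1144 to 1295 in the B cell libraries and to 0.271 to 2.11 in the T cell libraries. The T cell markers *Cd4*, *Tcf7*, *Lef1* and *Trac* summed to 1039 to 1192 in T cells and to 4.69 to 5.80 in B cells, so that no library went against its labelled cell type.

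All 9 genes were abundant in every B cell library and close to 0 in every T cell library. The mean level in B cells was 973 ± 88.7 (SD, n = 6) for *Cd79b* and 489 ± 55.7 for *Cd79a*, and it fell through *Cd22* (353 ± 12.6), *Syk* (264 ± 11.0), *Lyn* (202 ± 10.8), *Blk* (161 ± 8.85), *Blnk* (126 ± 7.68) and *Plcg2* (116 ± 4.88) to *Btk* (76.9 ± 4.13). The receptor chains thus stood at the top of the order, and the genes of the adaptor, the phospholipase and the TEC-family kinase at its foot. Each gene was above the next in 6 of 6 B cell libraries. The ranges of neighbours in this order did not overlap except for *Blnk* and *Plcg2*, whose means differed by 1.09-fold. Among 21397 protein-coding genes ranked by mean level in B cells, *Cd79b* was number 43, *Cd79a* 110, *Cd22* 141 and *Syk* 181, whereas *Btk* was number 771.

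**Figure D1:**
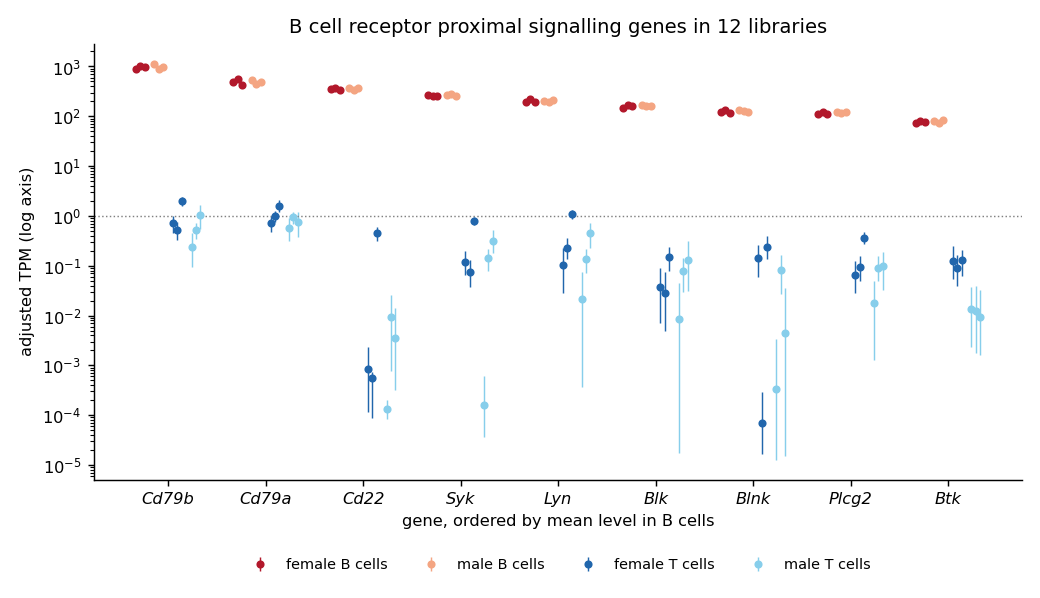
Adjusted TPM on a log axis of the 9 genes in each of the 12 libraries, coloured by group, with the deposited lower and upper bounds as bars and a dotted line at 1. All B cell points lie above 70, and the highest T cell point is *Cd79b* in female T cell 6 at 2.00.

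The sequences just around the transcription start are shown for 4 of these genes, since the 9 genes moved together between the cell types. RefSeq promoter windows (GRCm38.p6, 250 bases before to 50 bases after a start, read along the gene) were held for 6 of the 9 genes, with 7 windows in all: *Cd79a*, *Cd22*, *Btk*, *Blnk*, *Plcg2* and 2 for *Syk*. Capitals mark the matches to 5 motifs searched on both strands, namely the octamer ATGCAAAT, the E-box CAGCTG, the EBF half-site pair CCCNNGGG, the PU.1 site GAGGAAGT and the RUNX core TGTGGT.
Cd79a, chr7:24897247-24897546, plus strand: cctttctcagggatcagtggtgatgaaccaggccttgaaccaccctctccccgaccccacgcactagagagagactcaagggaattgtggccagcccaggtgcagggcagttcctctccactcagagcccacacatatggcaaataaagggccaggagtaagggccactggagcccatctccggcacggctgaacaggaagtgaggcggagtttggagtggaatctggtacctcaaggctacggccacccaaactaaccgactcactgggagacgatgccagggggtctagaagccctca
Cd22, chr7:30878979-30879278, minus strand: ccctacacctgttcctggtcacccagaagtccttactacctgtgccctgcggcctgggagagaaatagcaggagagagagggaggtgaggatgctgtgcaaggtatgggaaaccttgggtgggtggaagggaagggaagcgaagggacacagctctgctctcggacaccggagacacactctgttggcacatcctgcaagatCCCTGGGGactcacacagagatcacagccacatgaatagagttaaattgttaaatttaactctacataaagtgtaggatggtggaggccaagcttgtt
Syk, chr13:52583187-52583486, plus strand: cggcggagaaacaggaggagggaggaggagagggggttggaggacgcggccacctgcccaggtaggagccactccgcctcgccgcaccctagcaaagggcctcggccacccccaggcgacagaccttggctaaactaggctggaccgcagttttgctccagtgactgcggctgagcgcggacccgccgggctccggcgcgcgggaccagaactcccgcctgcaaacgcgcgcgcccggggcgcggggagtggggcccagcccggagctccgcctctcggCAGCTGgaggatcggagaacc
Blnk, chr19:40994172-40994471, minus strand: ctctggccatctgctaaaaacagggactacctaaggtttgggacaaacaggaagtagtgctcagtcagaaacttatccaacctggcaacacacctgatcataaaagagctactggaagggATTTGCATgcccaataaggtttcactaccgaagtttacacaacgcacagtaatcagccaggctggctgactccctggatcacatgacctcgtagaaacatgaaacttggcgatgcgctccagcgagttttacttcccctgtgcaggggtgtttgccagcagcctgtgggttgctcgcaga
The *Blnk* window held 1 octamer, in reverse complement, at bases 121 to 128 of the window. Of all 32851 promoter windows in the RefSeq table, 1.74% held this octamer. The *Cd22* window held 1 EBF match at bases 203 to 210, as did 13.7% of all windows, and the first *Syk* window held 1 E-box at bases 280 to 285, as did 16.3%. PU.1 (3.20% of all windows) and RUNX (16.8%) letters were found in none of the 7 windows, and *Cd79a*, *Btk*, *Plcg2* and the second *Syk* window held no match to any of the 5. A match of letters describes the sequence only, and a missing match says only that those letters are not in that window.

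The signalling chains of the receptor were *Cd79a* (chr7:24897381-24902197, plus strand, GRCm38) and *Cd79b* (chr11:106311341-106314762, minus strand). *Cd79b* stood at 893, 1037 and 953 in female B cells and at 1115, 884 and 957 in male B cells. In T cells it stood at 0.706, 0.521 and 2.00 in females and at 0.235, 0.521 and 1.04 in males. The lowest B cell library lay far above the highest T cell library, which was female T cell 6. *Cd79a* stood at 477, 573 and 417 in female and 532, 452 and 484 in male B cells, against 0.711, 0.996 and 1.58 in female and 0.571, 0.933 and 0.749 in male T cells. The fitted B minus T difference, on the scale of log2(adjusted TPM + 1), was 9.11 ± 0.161 (SE) for *Cd79b* and 8.01 ± 0.106 for *Cd79a*. Both chains are needed in 1 heterodimer, yet their transcripts were not equal: *Cd79b* was 2.00 ± 0.170 times *Cd79a* (SD, n = 6 B cell libraries), with a range of 1.81 to 2.29. Together the 2 chains made up 52.9% ± 1.68 of the summed level of the 9 genes in B cells.

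*Cd22* (chr7:30865402-30880342, minus strand), the inhibitory lectin, stood at 347, 362 and 336 in female B cells and at 362, 342 and 367 in male B cells. In T cells it was 0.448 in female T cell 6 and between 0.000131 and 0.00936 in the other 5 libraries. The B minus T difference was 8.37 ± 0.0840 on the same log2 scale. *Cd22* had the lowest T cell level of the 9 relative to its own B cell mean, 0.0218%, and without female T cell 6 its T cell mean went from 0.0770 to 0.00287.

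The 2 SRC-family kinases were *Lyn* (chr4:3678115-3813122, plus strand), which both starts the signal and feeds the inhibitory receptors, and *Blk* (chr14:63372836-63417037, minus strand). *Lyn* stood at 190, 219 and 195 in female and 204, 196 and 209 in male B cells. In T cells it was 0.104, 0.225 and 1.08 in females and 0.0218, 0.136 and 0.454 in males. *Blk* stood at 146, 172 and 162 in female and 166, 160 and 160 in male B cells, and no T cell library exceeded 0.151. *Lyn* was 1.26 ± 0.0449 times *Blk* in B cells, with a narrow range of 1.20 to 1.31. The B minus T difference was 7.29 ± 0.139 for *Lyn* and 7.24 ± 0.0583 for *Blk*. Antisense and other genes on the opposite strand overlap *Lyn*, of which the lincRNA *Gm26857* reached 24.7, and whether reads were counted by strand was not given in the sources used here. The same limit holds for *Btk*, *Cd22* and *Plcg2*. Genes on the opposite strand there reached 2.46 (*Gm15154*, at *Btk*), 0.638 (*Gm29439*, at *Cd22*) and 0.098 (*Gm27361*, at *Plcg2*).

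*Syk* (chr13:52583173-52648792, plus strand), the kinase that docks on the phosphorylated chains, stood at 262, 258 and 261 in female B cells and at 265, 285 and 253 in male B cells. In T cells it was 0.120, 0.0764 and 0.790 in females and 0.000161, 0.140 and 0.316 in males. The B minus T difference was 7.77 ± 0.115. *Btk* (chrX:134542336-134583570, minus strand), the TEC-family kinase that phosphorylates PLCG2, stood at 73.5, 78.8 and 75.5 in female and 78.6, 71.8 and 83.1 in male B cells. Its T cell values were 0.127, 0.0896 and 0.131 in females and 0.0132, 0.0122 and 0.00923 in males. The B minus T difference of *Btk*, 6.19 ± 0.0520, was the lowest of the 9 on this scale, where its B cell level was also the lowest. *Syk* was 3.45 ± 0.310 times *Btk* in B cells.

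The adaptor *Blnk* (chr19:40928927-40994535, minus strand) stood at 121, 136 and 119 in female and 135, 127 and 120 in male B cells. In T cells it ranged from 0.0000701 to 0.243. The phospholipase *Plcg2* (chr8:117498291-117635142, plus strand) stood at 111, 121 and 110 in female and 120, 116 and 119 in male B cells, and in T cells it ranged from 0.0177 to 0.359. The B minus T difference was 6.88 ± 0.0661 for *Blnk* and 6.71 ± 0.0662 for *Plcg2*. Relative to *Btk*, the kinase they assemble with, *Blnk* was at 1.64 ± 0.119 and *Plcg2* at 1.51 ± 0.0661.

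In the fit across all 12520 genes that reached 1 in at least 3 libraries (limma with Benjamini-Hochberg adjustment), 9 of 9 genes were called higher in B cells, with adjusted p between 4.26e-17 (*Blk*) and 4.88e-14 (*Lyn*). Of all genes tested, 73% were called in either direction, 31.4% as higher in B cells and 41.6% as higher in T cells. The lowest B cell library lay above the highest T cell library for 9 of 9 genes and for 24.2% of all genes tested. Each of the 9 passed the filter through its B cell libraries, since a level of 1 was reached in 2 T cell libraries by *Cd79b*, in 1 by *Cd79a* and *Lyn* and in none by the other 6. They therefore had to differ, and the count is a description of the genes. The median difference of the 9 was 7.29, against -0.09 over all genes tested. In bulk libraries, fewer cells of a type and less RNA per cell cannot be told apart. When every library was rescaled to a total of 1000000, 71.6% of all calls were higher in B cells against 43.0% as deposited. With median-ratio scaling that share was 52.55%. All 9 genes stayed higher in B cells under either scaling.

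Folds of the mean levels, which do not depend on a pseudocount, were larger than the fitted differences. They ran from 530 (*Cd79a*) and 600 (*Lyn*) through 963 (*Plcg2*), 1098 (*Syk*), 1163 (*Cd79b*), 1206 (*Btk*) and 1596 (*Blnk*) to 2219 (*Blk*) and 4582 (*Cd22*). These folds rest on very low T cell values. A more cautious figure is the lowest lower bound among the B cell libraries over the highest upper bound among the T cell libraries, which was 143 for *Lyn*, 200 for *Cd79a*, 450 for *Blk* and 552 for *Cd22*, with the other 5 genes between 231 and 360.

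The residual T cell levels were small beside the B cell levels for each gene. As a percent of the B cell mean, the T cell mean was 0.189 for *Cd79a*, 0.167 for *Lyn*, 0.104 for *Plcg2*, 0.0911 for *Syk*, 0.0860 for *Cd79b*, 0.0829 for *Btk*, 0.0627 for *Blnk*, 0.0451 for *Blk* and 0.0218 for *Cd22*. Female T cell 6 was the highest T cell library for 9 of 9 genes. The 9 genes summed to 6.77 there and to 0.867 to 2.81 in the other 5 T cell libraries, against 2619 to 2977 in B cells. For the B cell markers 4 of 4 were highest in that library as well, with a sum of 2.11 against 0.271 to 0.955 in the other 5. Female T cell 6 also had 11334 genes at a level of 1 or more, against 11122 to 11197 in the other 5. The share of all genes that were highest in this library is not given here. As a percent of the B cell mean, the B cell markers were at 0.133 (*Fcer2a*), 0.0672 (*Ms4a1*), 0.0447 (*Ebf1*) and 0.000546 (*Pax5*) in T cells. Whether B cells in the T cell libraries contributed to the residual levels was not tested. Without female T cell 6 the fold of means was 618 for *Cd79a*, 1072 for *Lyn*, 1610 for *Cd79b*, 2021 for *Syk*, 2730 for *Blnk* and 1593 for *Plcg2*. For *Cd22* it could not be given a useful size, because the remaining T cell values lay under 0.01. The deposited lower bound was at least 0.01 in 6 of 6 T cell libraries for *Cd79a* and *Cd79b*, in 5 for *Syk*, *Lyn* and *Plcg2*, in 3 for *Btk*, *Blnk* and *Blk* and in 1 for *Cd22*. In T cells *Cd79b* was 0.857 ± 0.417 times *Cd79a* (SD, n = 6, range 0.412 to 1.39). This ratio of the deposited point values lay under its B cell range in every T cell library. The bounds are too wide there to place the ratio outside the B cell range in each library. In male T cell 6 they were 0.5434 to 1.674 for *Cd79b* and 0.3825 to 1.185 for *Cd79a*.

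**Figure D2:**
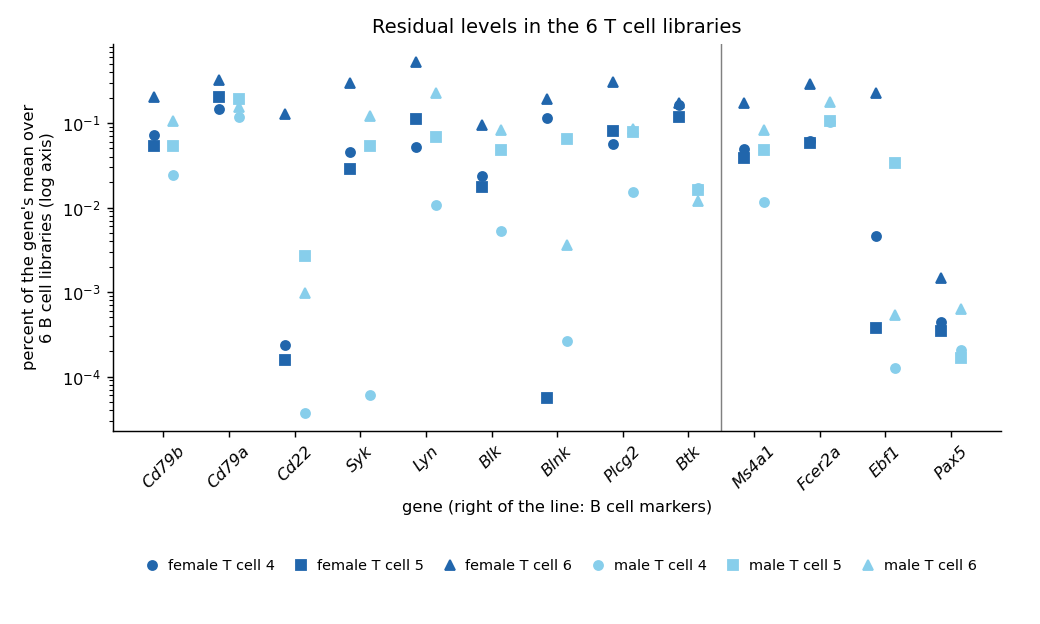
Level of each gene in the 6 T cell libraries as a percent of its mean over the 6 B cell libraries, on a log axis, with 4 B cell markers at the right; colour gives the sex and shape the library number. Triangles in dark blue, female T cell 6, are the highest for all 9 genes and all 4 markers, and *Cd79a* keeps within 0.117% to 0.322% in all 6 libraries.

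Female and male B cells were compared for the same 9 genes, since the libraries were made in both sexes. The means of the sexes lay close together, with female over male ratios from 0.963 (*Plcg2*) to 0.999 (*Cd79a*). The ranges of the 2 sexes overlapped for 9 of 9 genes; over all genes tested, 7.2% had no overlap. None of the 9 was called (limma, adjusted p = 1 for each), and 0 of 9 had an unadjusted p under 0.05; of all genes tested, 0.144% were called. The female minus male difference on the log2 scale ran from -0.06 to -0.01, and its 95% interval was narrowest for *Btk*, from -0.19 to 0.13, and widest for *Cd79b*, from -0.53 to 0.46. These intervals use 1 estimate of the spread per gene over all 12 libraries, T cells included. In a fit of the B cell libraries alone the interval was widest for *Cd79b*, from -0.39 to 0.33, and narrowest for *Plcg2*, from -0.24 to 0.13. For *Lyn* it was -0.44 to 0.41 in the fit of 12 libraries and -0.23 to 0.20 in B cells alone. Differences within these intervals cannot be told from none with 3 libraries a sex.

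The spread between B cell libraries differed between the genes themselves. Within a sex, the SD of the log2 level was 0.18 for *Cd79a* and 0.14 for *Cd79b*, against a median of 0.13 over all genes tested. The other 7 genes lay between 0.05 (*Cd22*) and 0.10 (*Blnk*). Female B cell 2 was the highest B cell library for 5 of the 9 genes, and female B cell 3 was the lowest for 4, including *Cd79a* at 417. The deposited bounds within a B cell library were closer together than the libraries were, since the upper bound was 1.03 to 1.04 times the lower for *Cd79a* and 1.05 to 1.09 times for *Btk*.

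**Figure D3:**
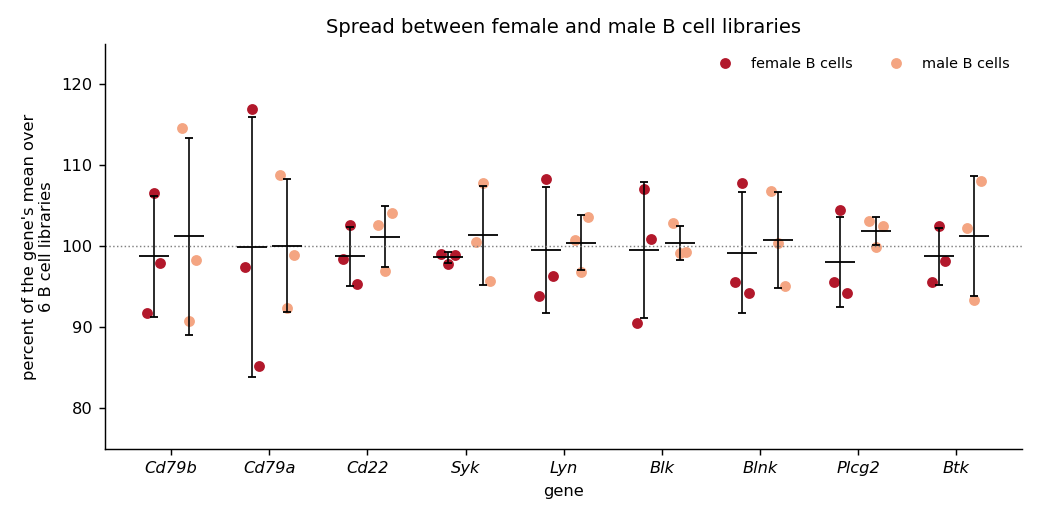
Each B cell library's level as a percent of that gene's mean over the 6 B cell libraries, with the mean and SD of each sex in black (n = 3 each); the axis starts at 75 and not at 0. The sexes overlap for every gene, and *Cd79a* and *Cd79b* spread most widely.

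In T cells the sexes were compared at levels of 2.00 or less. None of the 9 genes was called (limma, adjusted p = 1 for each, 0 of 9 with an unadjusted p under 0.05; 0.104% of all genes tested were called). *Btk* was the 1 gene of the 9 whose sexes did not overlap, with 0.116 ± 0.0229 in female and 0.0116 ± 0.00208 in male T cells (SD, n = 3 each). Such a gap was seen for 8.49% of all genes tested, so that 1 of 9 is near the background. Its female minus male difference was 0.14, with a 95% interval of -0.02 to 0.30 and an unadjusted p of 0.0780 in the limma fit. With the T cell libraries alone and their number as a replicate block, since same-numbered libraries deviated together, the interval for *Btk* was 0.08 to 0.21 (limma, unadjusted p = 0.00321, adjusted p = 0.535). In that fit 2 of 9 genes had an unadjusted p under 0.05, the other being *Cd79b* (0.0474, adjusted p = 0.789 by limma), and 0 of 9 were called. The share of all genes under that p in this fit is not given here, so 2 of 9 has no background beside it. With a pseudocount of 0.1 in place of 1 the difference of *Btk* was 0.95. The limma adjusted p was then 0.00191 in the fit of all 12 libraries without the block. It was 0.0875 in the T cell libraries alone with the block, so these fits differ in their libraries as well as in the block. Taken over the 3 libraries of a sex, the deposited bounds of *Btk* spanned 0.0386 to 0.247 for females and 0.00161 to 0.0392 for males, and so met at their edges. For the test of whether the sex difference itself differed between B and T cells, 0 of 9 genes were called (adjusted p = 1 for each, 0 of 9 with an unadjusted p under 0.05), as were 0% of all genes tested. For *Btk* at the smaller pseudocount that test gave a limma adjusted p of 0.114.

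The T cell counterparts of the same signalling steps had their high values in T cells. All 14 genes of that list were called higher in T cells (limma), against 41.6% of all genes tested, with a median difference of -5.82 against -0.09. For 10 of the 14 fewer than 3 B cell libraries reached a level of 1, so that these passed the filter through T cells and had to differ, and the count is a description here too. The other 4 (*Lck*, *Fyn*, *Plcg1* and *Rasgrp1*) passed it in B cells as well. Among all 14 were the CD3 chains *Cd3d*, *Cd3e*, *Cd3g* and *Cd247*, whose B minus T differences were -7.33, -6.06, -8.79 and -7.15. The list of 14 also held the adaptors *Lat* (-7.35) and *Lcp2* (-5.56), and the kinases *Zap70* (-5.57), *Txk* (-5.24), *Lck* (-4.71) and *Fyn* (-2.70). Further genes of the 14 were the phospholipase *Plcg1* (-3.05), the protein kinase C *Prkcq* (-7.16) and the RAS exchange factor *Rasgrp1* (-1.05).

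Set beside their counterparts, *Syk* and *Blnk* had a partner whose mean in B cells was under 1. The kinases SYK and ZAP70 both bind phosphorylated receptor chains. In B cells *Syk* stood at 264 and *Zap70* at 0.516 ± 0.163, whereas T cells had 0.241 of *Syk* and 71.0 ± 7.44 of *Zap70*. For the adaptors the B cell means were 126 (*Blnk*) and 0.850 ± 0.378 (*Lcp2*), and those of T cells were 0.0790 and 85.1 ± 1.19. The T cell genes of these pairs were 138 (*Zap70*) and 100.1 (*Lcp2*) times higher in T than in B cells. The T cell genes of the other 3 pairs were 28.4 (*Lck*), 6.80 (*Fyn*) and 8.90 (*Plcg1*) times higher. *Lck* was at 10.4 ± 1.68 in B cells against 296 ± 27.6 in T cells, *Fyn* at 17.9 ± 2.13 against 122 ± 7.72 and *Plcg1* at 11.4 ± 0.785 against 101 ± 6.50 (SD, n = 6 each). Within a B cell library, *Lyn* was 16.3 to 22.8 times *Lck*, *Blk* was 8.01 to 10.5 times *Fyn* and *Plcg2* was 8.93 to 11.5 times *Plcg1*. Within a T cell library the lowest ratio was 242 for *Lck* over *Lyn*, 748 for *Fyn* over *Blk* and 295 for *Plcg1* over *Plcg2*. *Rasgrp1* was at 51.8 in B cells and 108 in T cells. The T cell markers summed to 4.69 to 5.80 in B cells, of which *Lef1* gave a mean of 4.47, *Tcf7* one of 0.534, *Trac* one of 0.0581 and *Cd4* one of 0.00361. The CD3 chains had B cell means of 0.647 (*Cd247*), 0.220 (*Cd3d*), 0.0454 (*Cd3e*) and 0.0442 (*Cd3g*).

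**Figure D4:**
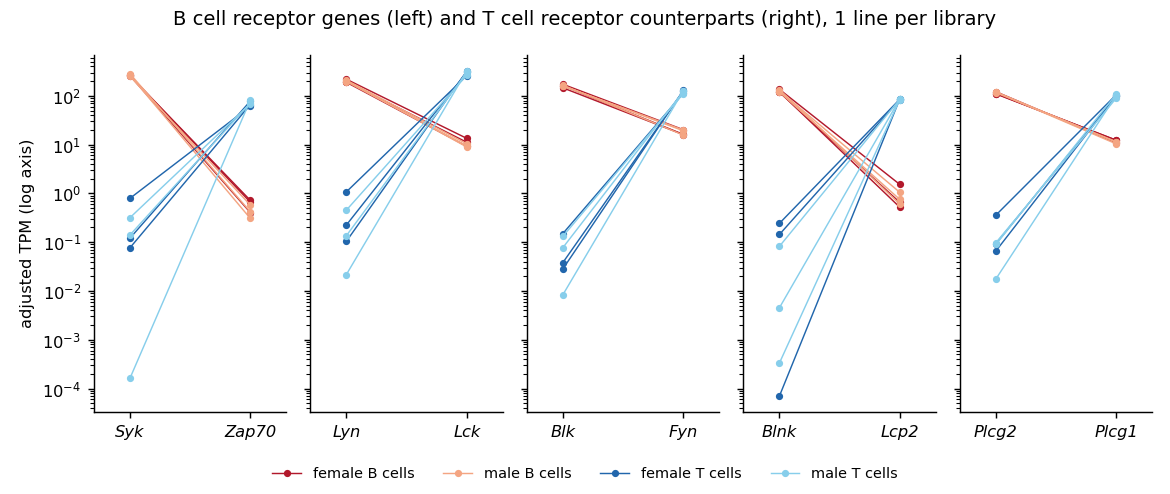
Adjusted TPM on a log axis of 5 genes of the B cell receptor pathway (left of each panel) and their T cell counterparts (right), with 1 line per library coloured by group. Lines of B and T cell libraries cross in every panel; the B cell lines drop below 2 for *Zap70* and *Lcp2* and stay above 8 for *Lck*, *Fyn* and *Plcg1*.

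Around the 9 genes, 56 further genes of the pathway were in the table and 53 were tested. Of these, 37 were called higher in B cells, 11 higher in T cells and 5 in neither direction, with a median B minus T difference of 1.13. Over all genes tested the calls were 31.4% in favour of B cells and 41.6% in favour of T cells. When every library was rescaled to a total of 1000000, 46 of the 53 were called, 39 as higher in B cells and 7 as lower. Under that rescaling 71.6% of the calls over all genes were higher in B cells, and the median of all genes was 0.26. The antigen-binding chains were high in B cells, with *Ighm* at 2618 ± 221 and *Igkc* at 1003 ± 109. The T cell means were 0.997 ± 0.733 for *Igkc* and 188 ± 20.6 for *Ighm*, with 157 to 215 in each T cell library. *Ighm* in T cells thus stood at 7.19% of its B cell mean, against 0.0994% for *Igkc*, and female T cell 6 had the lowest *Ighm* of the 6.

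The co-receptor genes *Cr2* and *Cd81*, whose products lower the threshold for signalling, were both higher in B cells. *Cr2* differed by 7.36; the table holds a second entry under this symbol, so that its level is uncertain. *Cd81*, a tetraspanin that many cells carry, differed by 2.87, with 12.2 in T cells.

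Of the 7 other inhibitory receptors, 4 were higher in B cells and 2 in T cells. *Siglecg*, a lectin of the family of CD22, differed by 6.98, *Fcgr2b*, the inhibitory Fc receptor, by 5.94 and *Pirb* by 4.55. The 2 that were higher in T cells were *Cd5*, with B and T cell means of 0.784 and 163, and *Lair1* (-1.10). *Pecam1* was not called, at 92.0 in B cells and 91.4 in T cells.

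Among 17 adaptors and exchange factors tested, 12 were higher in B cells, 2 in T cells and 3 in neither. *Bank1*, a scaffold that binds LYN, differed by 7.49, *Pik3ap1* (BCAP), an adaptor for PI 3-kinase, by 6.08, and *Lat2* (NTAL) by 5.76. *Nck2* (-1.19) and *Nck1* (-0.42) were higher in T cells, and *Nck1* was not called when libraries were rescaled to a total of 1000000 (-0.05, limma adjusted p = 0.846). *Vav1* at 72.3 against 67.1, *Vav3* at 7.62 against 7.52 and *Cbl* at 27.5 against 25.7 were the 3 not called, named here after their values were seen.

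All 5 further tyrosine kinases that were tested were higher in B cells, among them *Fgr* (3.07), *Tec* (2.39), *Ptk2b* and *Csk*, while *Yes1* and *Bmx* did not reach the filter. *Fgr* is best known from myeloid cells. The myeloid markers *Lyz2*, *Cd68*, *Csf1r*, *Adgre1* and *Itgam* summed to 13.2 to 17.2 in B cell and 2.64 to 6.55 in T cell libraries, and 3 of the 4 tested were higher in B cells. Platelet markers, of cells that use SYK, LYN and PLCG2 too, summed to 4.76 to 17.8 in B cell and 0.421 to 0.643 in T cell libraries, with 3 of 3 tested higher in B cells. The B cell means of the myeloid markers were 8.89 (*Lyz2*), 2.98 (*Adgre1*), 1.64 (*Cd68*), 1.25 (*Itgam*) and 0.630 (*Csf1r*), and those of the platelet markers 5.33 (*Ppbp*), 1.59 (*Pf4*), 1.56 (*Itga2b*) and 0.722 (*Gp9*). Erythroid markers summed to 0.912 to 198 in B cell and 2.45 to 43.8 in T cell libraries, with 0 of 2 called (limma; 0 with an unadjusted p under 0.05). Plasma cell markers summed to 56.7 to 138 in B cell libraries, of which *Jchain* gave a mean of 97.9, and to 2.01 to 3.00 in T cells. Of the 3 tested, *Jchain* and *Sdc1* were higher in B cells and *Prdm1* was higher in T cells, at 1.66 against 0.676. Natural killer cell markers summed to 0.451 to 1.77 in B cell and 16.0 to 24.2 in T cell libraries, where *Klrd1*, the 1 marker tested of 3, gave nearly all of it with a mean of 20.2 and was higher in T cells. *Ncr1* had means of 0.204 in B cells against 0.00742 in T cells, and *Nkg7*, whose ranges overlapped, 0.121 against 0.30. The part of such cells in the levels of the 9 genes was not tested.

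Of 7 phosphatases, 4 were higher in B cells and 2 in T cells. The highest difference was that of *Ptprj* (CD148), which acts on SRC-family kinases, at 6.02. *Ptpn6*, which encodes the SHP-1 recruited by CD22, had means of 352 (B cells) and 97.3 (T cells), a difference of 1.86, and *Inpp5d* (SHIP-1), recruited by the inhibitory Fc receptor, differed by 1.31. *Ptpn22* was higher in T cells (-1.38), as was *Ptprc* (CD45, -0.41), which was not called after rescaling to a total of 1000000 (-0.03, limma adjusted p = 0.924). *Ptpn11* was not called, with 18.1 in B cells and 17.3 in T cells.

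Of the 12 downstream genes, 7 were higher in B cells, against 31.4% of all genes tested. The other 5 were higher in T cells, a share close to the 41.6% of all genes tested. *Rasgrp3*, a RAS exchange factor activated by the lipid product of PLCG2, differed by 5.78, *Prkcb*, the protein kinase C of this pathway, by 1.93 and *Itpr1*, a calcium-release channel, by 1.13. *Orai1* (-1.20) and *Stim1* (-1.11), which carry store-operated calcium entry, and *Pik3cd* (-1.08), a catalytic subunit of PI 3-kinase, were higher in T cells. None of the 53 genes tested was called between the sexes in B or in T cells, with 0 of 53 and 2 of 53 at an unadjusted p under 0.05 (limma). Over the whole fit of 12520 genes, 373 passed that unadjusted threshold between female and male B cells. Between the T cell sexes 319 did. Calls were rare over all genes too, at 0.144% (B cells) and 0.104% (T cells), so their absence does not set the 53 apart.

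**Figure D5:**
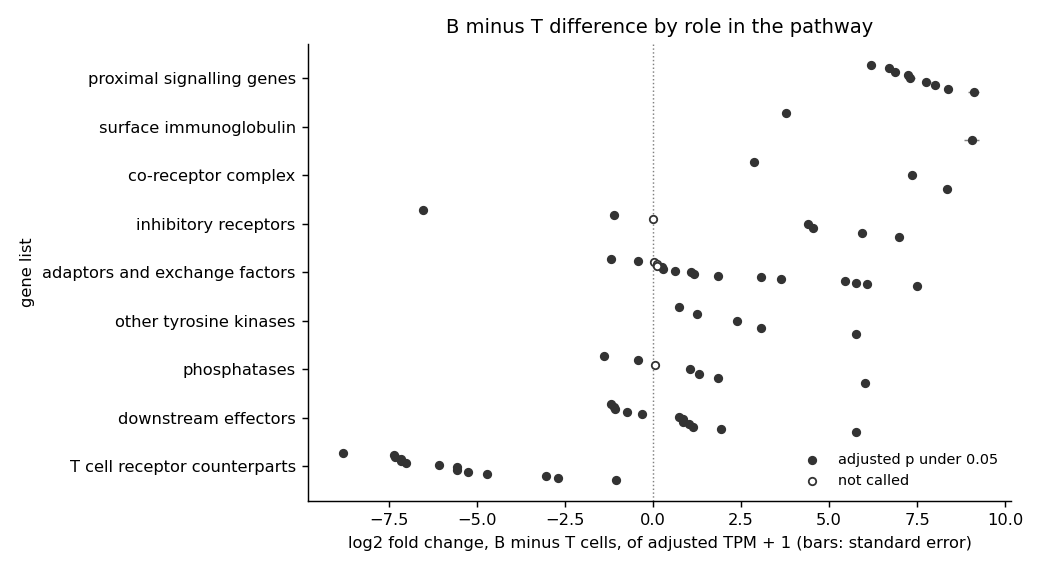
B minus T difference of log2(adjusted TPM + 1) for each tested gene, by its role in the pathway, with standard errors as bars and open circles for genes that were not called. The 9 proximal genes lie between 6.19 and 9.11, the T cell counterparts between -8.79 and -1.05, and the downstream effectors on both sides of 0.

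The genes with the most similar profiles over the 12 libraries were found by the root mean square difference of centred log2 levels among 10399 protein-coding genes. Among them were *Ms4a1* (CD20) for *Cd79b* at 0.08, *Spib* for *Syk* at 0.14, *Tnfrsf13c* (the BAFF receptor) for *Blk* at 0.09 and *Lmo2* for *Plcg2* at 0.07. *Wdfy4* was nearest to *Lyn* at 0.08, *Lrrk2* to *Blnk* at 0.10, *5031414D18Rik* to *Btk* at 0.08 and *Scd1* to *Cd79a* at 0.15. These profiles are set mainly by the contrast of 6 B cell with 6 T cell libraries, and the likeness is a description of the levels.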

How the data were processed

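Splenic B and T cell RNA was sequenced as stranded total RNA after ribosomal depletion with spike-ins. The deposited signal values are adjusted TPM per gene with lower and upper bounds; the authors' quantifier, rescaling and bound level are not given in the sources used here. The submitters' processing notes name Trim Galore, FastQC, STAR and mm10. The labels do not say which libraries came from separate animals, so p-values measure only the spread between these libraries, which may be technical.

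Values entered limma 3.58.1 (R 4.3.3) as log2(adjusted TPM + 1), with 4 group means and a mean-variance trend, for 12520 genes at 1 or more in at least 3 of 12 libraries. Calls had a Benjamini-Hochberg adjusted p under 0.05. The fit was also run on simulated data, and the outcome of that run is not reported here. Coordinates came from GENCODE M21 (GRCm38) and promoters from RefSeq.

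Library numbers paired the T cells, whose same-numbered female and male libraries deviated together (correlations of 0.52, 0.55 and 0.72); the number has no stated meaning. Named genes were the 9, all T cell counterparts, up to 3 called genes per list and direction, and the nearest profile of each of the 9. The genes, lists and tests were chosen with earlier results of these data known. Alternatives covered scaling, filter, pseudocount, trend, single sexes, each library left out and the replicate block. Figures were drawn with matplotlib 3.10.9 in Python 3.11.15. A few genes of the lists are not reported here by name.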

Additional observations from a re-analysis of the deposited data

How the results depend on the processing

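Of 139 recomputed counts of calls, 138 kept within 1.5 times their value; the exception was the count of the 9 genes called between the sexes in T cells, which was 1 (*Btk*) at a pseudocount of 0.1. The 9 B minus T differences kept their sign and call under 20 alternatives each, and without single libraries they moved little (*Lyn* 7.20 to 7.43, *Cd79b* 9.01 to 9.26). A pseudocount of 0.1 raised them, for *Cd22* to 11.34. Rescaling to a total of 1000000 moved the median of all genes from -0.09 to 0.26, against which changes are then read. Median-ratio scaling moved that median to 0.01. The number of pathway genes called ran from 46 to 50, and of markers of other cell types from 8 to 15. The female minus male differences in B cells, none of which was called, changed sign for 7 genes: *Cd79a* was 0.00411 under median-ratio scaling, and without single libraries *Cd79a* ran from -0.13 to 0.10, *Cd79b* from -0.11 to 0.0609, *Syk* from -0.0777 to 0.00802, *Btk* from -0.0901 to 0.0144, *Blnk* from -0.0844 to 0.0195, *Lyn* from -0.0778 to 0.0251 and *Blk* from -0.0712 to 0.0496. In the B cell libraries alone, the replicate block, where same-numbered libraries did not deviate together (correlations of -0.34 to -0.04), gave 0 of 9 calls. The count over all genes was 5 in that fit, against 18 in the fit of all 12 libraries without the block. These fits differ in their libraries and filtered genes as well as in the block. In the T cell libraries alone, the replicate block with the filter over all 12 libraries, added after seeing the data, also gave 0 of 9 calls, at either pseudocount. The planned fits of T cell libraries alone gave no value, because the 9 genes did not reach the filter there. The cause of these changes was not tested. Depth is unknown, which bears most on the T cell levels under 0.01.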
